A study of Mus musculus with 9 samples.

Results

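The UDP-glucuronosyltransferases (UGTs) examined here are 9 genes, Ugt1a1, Ugt1a6a, Ugt2a3, Ugt2b1, Ugt2b5, Ugt2b34, Ugt2b36, Ugt3a1 and Ugt3a2. They were taken by name, with earlier results of these data known, from 26388 genes with at least 1 transcript in 9 mouse livers. Liver cells of wild-type male C57BL/6 mice aged 8 weeks were captured by Drop-seq, which traps single cells with barcoded beads and counts each transcript once as a unique molecular identifier (UMI). The mice had been injected into a vein with AAVrh.10mCherry (mice 3, 6 and 9), with AAVrh.10Null (mice 2, 5 and 8) or with PBS (mice 1, 4 and 7). AAVrh.10 is a serotype of adeno-associated virus, a common vehicle for gene transfer to hepatocytes; mCherry is a red fluorescent protein, and PBS is saline. The sources used here give neither the vector dose nor the time between injection and collection. Each library is the liver of 1 mouse, so n = 3 mice per group. Levels are UMIs of a gene scaled to a total of 1000000 UMIs in that liver (CPM), over barcodes with at least 200 genes.

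UGTs are enzymes of the endoplasmic reticulum that attach a sugar, for most of them glucuronic acid from UDP-glucuronic acid, to small lipophilic molecules, which can then be excreted in bile or urine. Hepatocytes use them to clear bilirubin, steroids, bile acids, phenols and many drugs. Ugt1a1 conjugates bilirubin, the breakdown product of haem, and Ugt1a6a conjugates planar phenols and is induced through the aryl hydrocarbon receptor. The Ugt2b enzymes act mainly on steroids and drugs, and the human UGT3A enzymes use sugars other than glucuronic acid.

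The paralogues differ in how well a transcript end tells them apart, and Drop-seq counts are made from transcript ends. The following positions and sequences are those of GENCODE models on GRCm38, the mouse build also called mm10. Ugt1a1 (chr1:88211959-88218997, plus strand) and Ugt1a6a (chr1:88134809-88218997, plus strand) have first exons of their own, chr1:88211959-88212871 and chr1:88134809-88134935. The model of Ugt1a1 has 5 exons and that of Ugt1a6a has 6, so not every later exon of Ugt1a6a is shared. The last 1314 bases of the transcripts, which hold the transcript ends, are identical. The sources used here do not say how reads in these identical bases were divided among Ugt1a genes. The levels of Ugt1a1 and Ugt1a6a are therefore uncertain as levels of either gene. Ugt2b34 (chr5:86889767-86906937), Ugt2b1 (chr5:86916638-86926530), Ugt2b36 (chr5:87065927-87092555), Ugt2b5 (chr5:87124960-87140318) and Ugt2a3 (chr5:87324972-87337195) lie on the minus strand of 1 cluster. Ugt3a1 (chr15:9276888-9315032) and Ugt3a2 (chr15:9335550-9370955) are neighbours on the plus strand. The last 60 coding bases, stop codon included, are shown for the Ugt2b and Ugt3a genes nearest to each other in sequence, whose reads are hardest to separate there, with capitals marking bases at which the second gene of a pair differs from the first.
Ugt2b5: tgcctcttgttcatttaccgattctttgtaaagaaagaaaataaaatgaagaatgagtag
Ugt2b36: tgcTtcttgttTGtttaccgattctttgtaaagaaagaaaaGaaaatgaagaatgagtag
Ugt3a2: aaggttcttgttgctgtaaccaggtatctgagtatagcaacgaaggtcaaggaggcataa
Ugt3a1: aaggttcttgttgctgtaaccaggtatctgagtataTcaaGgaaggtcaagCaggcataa
In this stretch Ugt2b36 has 4 differences from Ugt2b5 and Ugt3a1 has 3 from Ugt3a2. Over the whole coding sequence Ugt2b5 and Ugt2b36 were 89.0% identical and Ugt3a1 and Ugt3a2 93.3%. In the last 500 bases of the transcripts these identities were 82.0% and 88.7%. The coding sequences of Ugt2b1, Ugt2b34 and Ugt2a3 were more distant from that of Ugt2b5, at 74.1%, 73.6% and 68.5%.

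The livers differed before any comparison. The barcodes kept, 44898 of 48000, held 291338 UMIs in mouse 7 (PBS), where 550 of 3600 barcodes had 200 genes, and 4234127 to 11220147 UMIs in the other 8 mice. The 5 hepatocyte markers (Alb, Apoa1, Ttr, Serpina1c, Cyp2e1) summed to 73445 to 93599 CPM in the AAVrh.10mCherry mice, 74526 to 90164 CPM in the AAVrh.10Null mice and 91523 to 101611 CPM in the PBS mice. Stellate cell markers summed to 123 to 207 CPM in the AAVrh.10mCherry mice, 60.9 to 146 CPM in the AAVrh.10Null mice and 121 to 604 CPM in the PBS mice. Plasma cell markers summed to 3.73 to 6.53, 4.72 to 13.4 and 4.90 to 494 CPM in the same order of groups, T/NK markers to 13.7 to 34.2, 9.92 to 25.8 and 5.88 to 85.8 CPM, and erythroid markers to 264 to 1238, 59.9 to 2471 and 164 to 754 CPM. These ranges overlapped between the groups, except that the hepatocyte markers were lower in every AAVrh.10Null mouse than in every PBS mouse. Mitochondrial UMIs made up 17.8% in mouse 6 and 17.3% in mouse 8, against 3.43% to 10.2% in the other mice. The nuclear RNA Malat1 was at 10265 CPM in mouse 6, 23010 and 15016 CPM in mice 2 and 8 and 15944 CPM in mouse 7, against 2769 to 6307 CPM in the other 5 mice. The part of these markers and RNA measures in the results was not tested. mCherry was at 1797 to 7979 CPM in the AAVrh.10mCherry mice. It was at 24.3 CPM in PBS mouse 1, 22.7 CPM in AAVrh.10Null mouse 5 and 0.149 CPM or less in mice 2, 4, 7 and 8. The source of the mCherry UMIs in mice 1 and 5 was not tested. Mouse 6 (AAVrh.10mCherry) stood apart in genes that differ between the sexes in mouse liver. The female-predominant Cyp2b9 was at 244 CPM there and at 3.43 CPM or less in the other mice, and the male-predominant Elovl3 was at 3.96 CPM against 186 to 532 CPM. The Y-linked Ddx3y was found in every liver, at 59.7 to 125.8 CPM. Few barcodes of mice 2 and 8 (AAVrh.10Null) ended in an undetermined base, 7 and 20 of them against 174 in mouse 7 and 1056 to 1735 in the other 6 mice. Whether this marks a batch was not tested, and in contrasts with AAVrh.10Null it cannot be told apart from the treatment for those 2 mice. Pairs of libraries shared 1 to 10 barcodes.

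Ugt2b5 and Ugt2b36 made up most of the UGT transcripts in every liver. The UMIs of the 9 genes together came to 2798, 2061 and 2959 CPM in AAVrh.10mCherry mice 3, 6 and 9, to 3486, 3452 and 2612 CPM in AAVrh.10Null mice 2, 5 and 8, and to 3048, 3198 and 1603 CPM in PBS mice 1, 4 and 7. The summed level was lowest in mice 7 and 6, and the ranges of the 3 groups overlapped. The means were 2606 ± 479, 3183 ± 495 and 2616 ± 881 CPM in that order of groups (SD, n = 3 each). Ugt2b5 took 30.3% to 37.0% of these UMIs and Ugt2b36 took 26.7% to 32.0%. Counts from transcript ends were not divided by transcript length, so the order of genes is an order of UMIs. In sums over all barcodes of a liver, fewer cells of a type and less RNA per cell cannot be told apart.

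**Figure D1:**
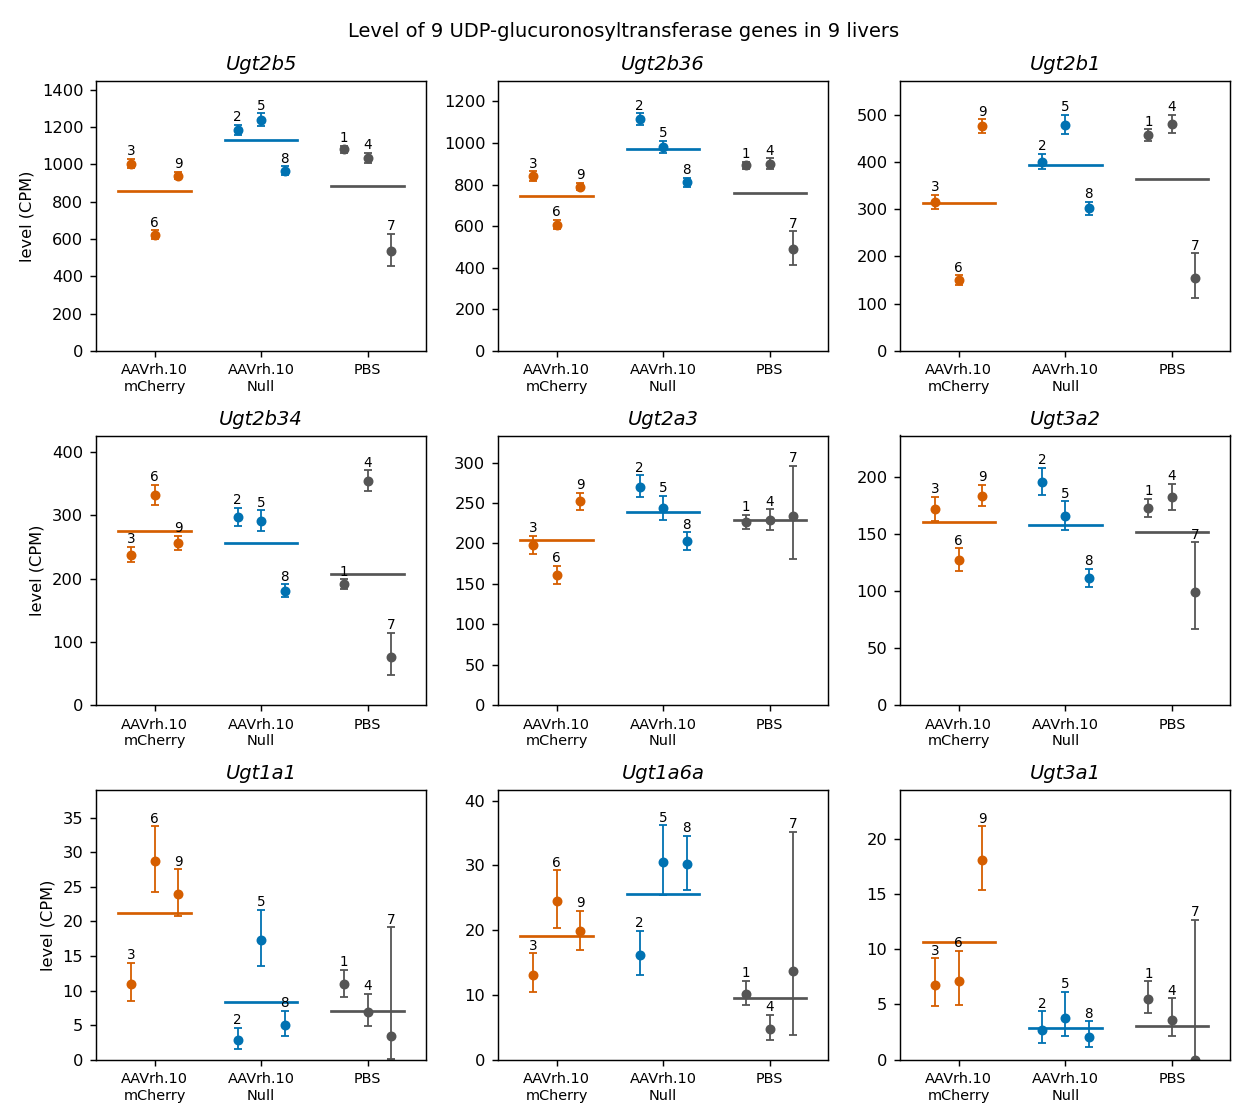
Level of each gene in each liver, in CPM (UMIs scaled to all UMIs of that liver), with the AAVrh.10mCherry, AAVrh.10Null and PBS mice from left to right. Points are mice with their numbers, bars are exact 95% Poisson intervals that cover counting error only, and lines are group means; in each panel at least 1 pair of groups overlaps, and PBS mouse 7 has the widest interval.

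Ugt2b5, an abundant steroid and drug glucuronidating enzyme of mouse liver, was at 1005, 624 and 939.5 CPM in the AAVrh.10mCherry mice, at 1184, 1241 and 967 CPM in the AAVrh.10Null mice and at 1082, 1035 and 535 CPM in the PBS mice. Mouse 7 and mouse 6 were the lowest of the 9, and 2 of the 3 AAVrh.10Null mice were above all others. Ugt2b36, its nearest paralogue, was at 840.0, 607 and 790.2 CPM in the AAVrh.10mCherry mice, at 1116, 979 and 812 CPM in the AAVrh.10Null mice and at 893, 901 and 487 CPM in the PBS mice. It was below Ugt2b5 in 9 of 9 livers. The ratio of Ugt2b5 to Ugt2b36 ran from 1.03 to 1.27 with a median of 1.19, a narrow range beside the spread of either gene. Its group means were 1.14 ± 0.0952 in AAVrh.10mCherry mice, 1.17 ± 0.104 in AAVrh.10Null mice and 1.15 ± 0.0566 in PBS mice (SD, n = 3 each). How far reads were misassigned between these paralogues was not tested, for this ratio or for the group comparisons below.

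Ugt2b1, whose rat counterpart conjugates bisphenol A, was at 316, 149 and 476 CPM in the AAVrh.10mCherry mice, at 401, 479 and 302 CPM in the AAVrh.10Null mice and at 457, 481 and 154 CPM in the PBS mice. It ranked the third of the 9 genes in 7 of 9 livers, and mice 6 and 7 were the exceptions. These 2 livers had the lowest levels of Ugt2b1, from 754 UMIs in mouse 6 and 45 UMIs in mouse 7. Ugt2b34, a further steroid and drug conjugating member of the cluster, was at 238, 332 and 256 CPM in the AAVrh.10mCherry mice, at 297, 291 and 181 CPM in the AAVrh.10Null mice and at 191, 354 and 75.5 CPM in the PBS mice. These neighbours on chromosome 5 did not keep a fixed ratio. Ugt2b34 was at 0.417 to 0.753 times the level of Ugt2b1 in 8 livers and at 2.22 times in mouse 6.

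Ugt2a3, whose human counterpart conjugates bile acids, was the steadiest of the 6 abundant genes at 198, 161 and 252 CPM in the AAVrh.10mCherry mice, 270.4, 244 and 203 CPM in the AAVrh.10Null mice and 226, 229 and 233 CPM in the PBS mice. In mouse 7, where the other Ugt2 genes were low, it took 14.6% of the UMIs of the 9 genes, against 7.07% to 8.52% in the other livers. Ugt3a2, whose human counterpart uses UDP-glucose and UDP-xylose, was at 172, 127 and 184 CPM in the AAVrh.10mCherry mice, at 196, 166 and 111 CPM in the AAVrh.10Null mice and at 173, 182 and 99.5 CPM in the PBS mice. It was below Ugt2a3 in 9 of 9 livers.

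**Figure D2:**
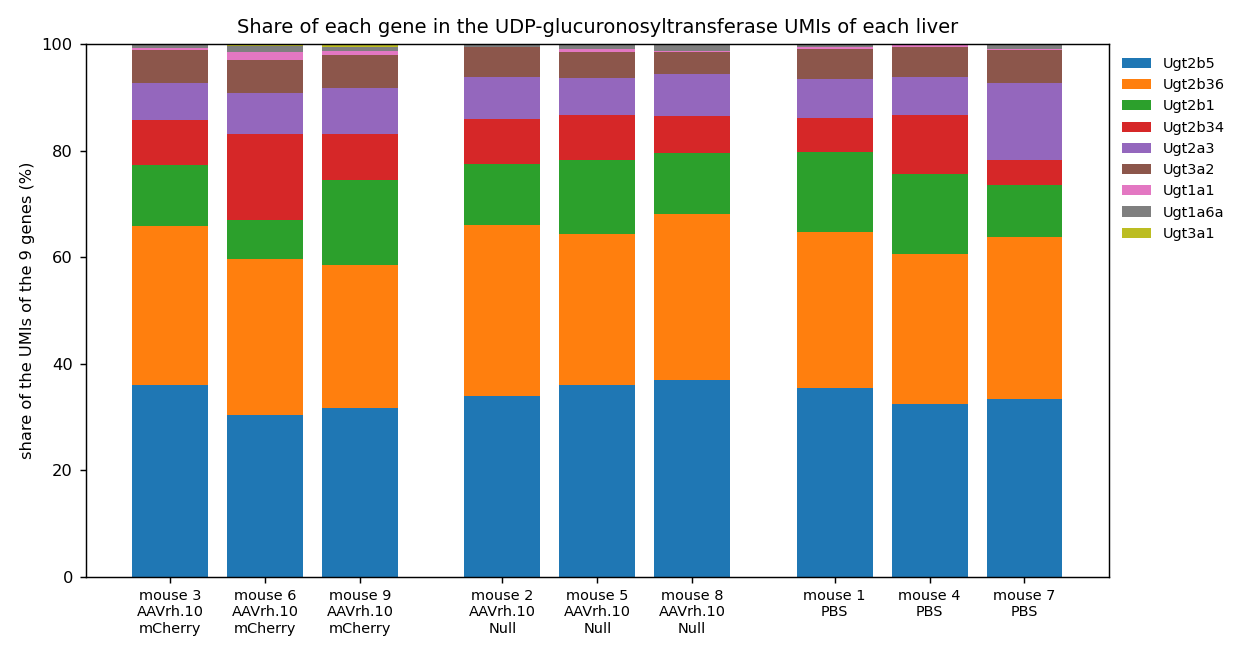
Share of each gene in the UMIs of the 9 UGT genes in each liver (percent), with the AAVrh.10mCherry, AAVrh.10Null and PBS mice from left to right. Ugt2b5 and Ugt2b36 take more than any other gene in each bar; Ugt2b34 reaches 16.1% in mouse 6, where Ugt2b1 takes 7.24%, and Ugt2a3 reaches 14.6% in mouse 7.

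The other 3 genes each took at most 1.39% of the UMIs of the 9. Ugt1a1 was at 11.0, 28.7 and 24.0 CPM in the AAVrh.10mCherry mice, at 2.82, 17.2 and 5.05 CPM in the AAVrh.10Null mice and at 10.9, 6.94 and 3.43 CPM in the PBS mice. The highest value was that of mouse 6, and the PBS value of mouse 7 rests on 1 UMI (95% Poisson interval 0.0869 to 19.1 CPM). Ugt1a6a was at 13.2, 24.5 and 19.8 CPM in the AAVrh.10mCherry mice, at 16.2, 30.5 and 30.2 CPM in the AAVrh.10Null mice and at 10.2, 4.69 and 13.7 CPM in the PBS mice, the last from 4 UMIs. Its AAVrh.10Null values lay above all PBS values, while the AAVrh.10mCherry values overlapped both other groups. The ratio of Ugt1a6a to Ugt1a1 was 1.2, 0.855 and 0.825 in AAVrh.10mCherry mice 3, 6 and 9, 5.75, 1.77 and 5.97 in AAVrh.10Null mice 2, 5 and 8, and 0.934, 0.676 and 4 in PBS mice 1, 4 and 7. Mice 2 and 8, which hold few barcodes with an undetermined last base, had the 2 highest ratios. Ugt3a1, whose human counterpart transfers N-acetylglucosamine, was at 6.74, 7.12 and 18.1 CPM in the AAVrh.10mCherry mice, at 2.65, 3.78 and 2.08 CPM in the AAVrh.10Null mice and at 5.53, 3.56 and 0 CPM in the PBS mice. Mouse 7 held 0 UMIs of Ugt3a1. At its depth the floor of 3 UMIs is 10.3 CPM, and the 95% Poisson interval reaches 12.7 CPM. Mouse 9 alone had a measured level over 10 CPM.

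Against this order of levels, neighbouring genes were often not separable. Ugt2b1, Ugt2b34 and Ugt2a3 exchanged places between livers, as did Ugt1a1 and Ugt1a6a, whereas Ugt2b5 and Ugt2b36 were the top genes and Ugt3a1 the lowest in 9 of 9. The likeness of genes over livers was described by the root-mean-square difference of log2(CPM + 1), centred on each gene's mean over the 9 mice, among 4478 genes with a mean of at least 20 CPM. Ugt2b5 and Ugt2b36 were each other's nearest genes of all 4478, with a difference of 0.0925. The next gene for Ugt2b5 was Pdia6 (0.113), which encodes a protein disulfide isomerase, and that for Ugt2b36 was Serpinf2 (0.108), which encodes a plasmin inhibitor. Ugt2a3 was nearest to Rpn1 (0.0932), a subunit of the oligosaccharyltransferase, and to Plg (0.122), plasminogen. Ugt3a2 was nearest to Rnft1 (0.113) and to Cers2 (0.121), a ceramide synthase. Ugt2b1 had no neighbour as near, with C8a at 0.240 and C4bp at 0.265, both of the complement system, and Ugt2b34 had Aqp9 at 0.186 and Mmp19 at 0.221. These livers share the depth differences given above, which enter every such difference.

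Barcodes of other liver cell types held UGT transcripts at a lower level, and Alb was lower in them as well. Clusters were given cell type names from markers, and the 43488 remaining barcodes, mostly hepatocyte-dominated, had 2982 CPM of the 9 genes. Relative to those remaining barcodes of the same mice, the 9 genes stood at 43.6% (95% Poisson interval 38.3% to 49.4%) in 135 Kupffer/macrophage-like barcodes, where Alb stood at 38.1%. The shares were 49.1% (44.3% to 54.3%) in 196 T/NK-like barcodes with Alb at 55.4%, and 59.7% (56.0% to 63.7%) in 503 endothelial-like barcodes with Alb at 51.1% and the hepatocyte transcripts Ttr and Apoa1 at 61.2% and 66.5%. Stellate/fibroblast-like barcodes, 74 of them, had 61.7% (52.8% to 71.7%) with Alb at 59.7%. In 20 cholangiocyte-like barcodes the 9 genes stood at 39.6% (28.7% to 53.4%) with Alb at 54.8%, and 482 barcodes of unnamed clusters had 59.2% with Alb at 61.7%. Of the unnamed barcodes, 297 came from PBS mouse 7, against 8 to 83 from each other liver. Only 202 of the 550 barcodes kept in mouse 7 were remaining ones, and the part of this make-up in its levels was not tested. Ttr and Apoa1 stood at 41.7% and 48.3% in Kupffer/macrophage-like, and at 59.1% and 57.7% in T/NK-like barcodes. They stood at 66.2% and 64.7% in stellate/fibroblast-like, and at 52.6% and 37.0% in cholangiocyte-like barcodes. The interval of the 9 genes lay above Alb in Kupffer/macrophage-like and endothelial-like barcodes, and below it in T/NK-like and cholangiocyte-like barcodes. Alb is made by hepatocytes, so its level in the other types is taken as the background. The UGT values lay on both sides of it and are not read as expression in those cells.

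AAVrh.10Null against PBS asks what the vector without mCherry changes in the liver. None of the 9 UGT genes passed the test (edgeR's quasi-likelihood test with Benjamini-Hochberg adjustment over all genes, threshold 0.05), with 9 of 9 tested and a background of 0.00883% of 11321 genes called. Of the 9 genes, 1 had an unadjusted p under 0.05, where 12.9% of all genes did. The groups did not overlap for 1 gene, Ugt1a6a, with higher AAVrh.10Null values, against 12.3% of all genes in that direction. Ugt1a6a averaged 25.6 ± 8.14 CPM in AAVrh.10Null mice and 9.53 ± 4.55 CPM in PBS mice (SD, n = 3 each), a log2 change of 1.64 with an SE of 0.40 and a 95% interval of 0.78 to 2.50. Its unadjusted p of 0.00127 ranked it number 87 among the genes tested, and its edgeR adjusted p was 0.158. The call turns on the setting: it passed with no filter on low counts (edgeR adjusted p = 0.000325), with DESeq2 (0.0390) and over barcodes with at least 500 genes (0.0449). Without mice 6 and 7 the log2 change was 1.70, and without mice 2 and 8, which leaves 1 AAVrh.10Null mouse assumed to vary like the others, it was 1.91. Without PBS mouse 4, the liver with the lowest value, it was 1.23.

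The abundant genes moved less than their spread in this comparison. Ugt2b5 averaged 1131 ± 145 CPM in AAVrh.10Null mice and 884 ± 303 CPM in PBS mice, with a log2 change of 0.32 (95% interval −0.36 to 0.99, edgeR adjusted p = 0.681). Ugt2b36 averaged 969 ± 152 and 760.4 ± 236 CPM in the same order, with a change of 0.31 (−0.31 to 0.92). Both values rest on mouse 7: without mice 6 and 7 they were 0.05 and 0.06. Ugt2b1 had 0.05 (−0.91 to 1.01), Ugt2b34 had 0.22 (−0.65 to 1.09), Ugt2a3 had 0.03 (−0.46 to 0.53), Ugt3a2 had −0.02 (−0.64 to 0.60), Ugt1a1 had −0.13 (−1.40 to 1.15) and Ugt3a1 had −0.70 (−1.80 to 0.40). The intervals of Ugt2a3, Ugt3a2, Ugt2b36 and Ugt2b5 are the narrowest and leave out changes of 1 log2 unit in either direction. The median over the 9 genes was 0.05, beside −0.01 over all genes tested.

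**Figure D3:**
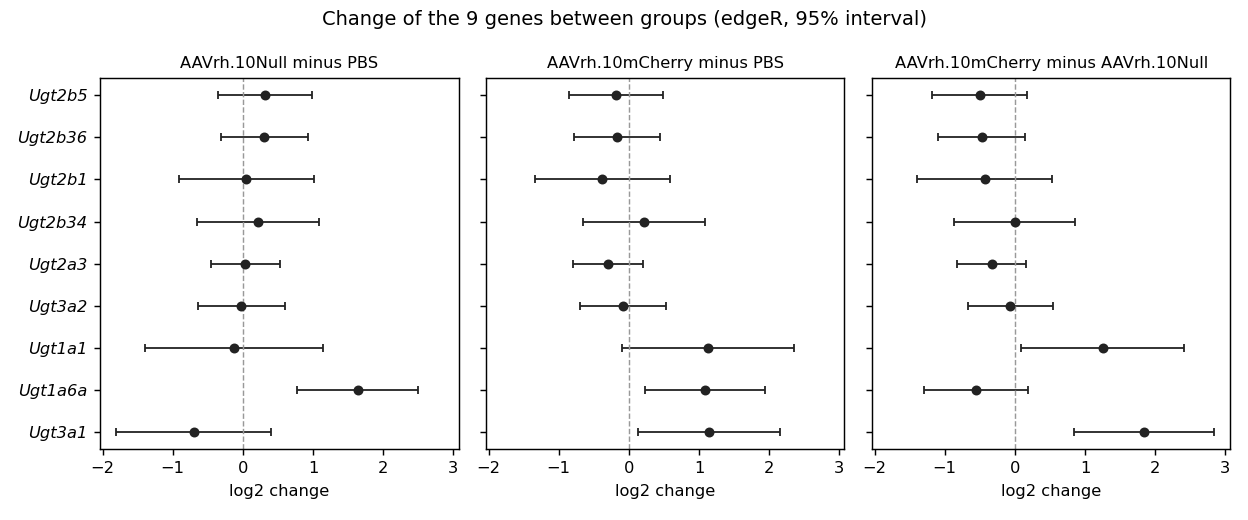
Log2 change of each gene between groups from edgeR on UMI sums per mouse, with points for the estimate and bars for the 95% interval, with AAVrh.10Null and then AAVrh.10mCherry set against PBS in the first panels and AAVrh.10mCherry set against AAVrh.10Null in the last. The 6 abundant genes have intervals that include 0 in each panel, and the intervals that exclude 0 belong to Ugt1a6a, Ugt1a1 and Ugt3a1, none of which passed the adjusted threshold.

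AAVrh.10mCherry against PBS, which shares its PBS mice with the comparison above, asks the same of the vector with mCherry. Again 0 of 9 genes passed by edgeR, with a background of 0% of 11321 genes, and 2 of 9 had an unadjusted p under 0.05, against 6.57% of all genes. The groups did not overlap for 2 genes with higher AAVrh.10mCherry values, against 14.4% of all genes in that direction. Ugt1a1 was 1 of them, at 21.2 ± 9.19 CPM in AAVrh.10mCherry mice and 7.08 ± 3.72 CPM in PBS mice, with a gap of 11.0 CPM (mouse 3) to 10.9 CPM (mouse 1) that is within counting error. Its log2 change was 1.13 (95% interval −0.10 to 2.36, edgeR adjusted p = 0.717). The other was Ugt3a1, at 10.6 ± 6.42 CPM in AAVrh.10mCherry mice and 3.03 ± 2.80 CPM in PBS mice, with 1.14 (0.13 to 2.15, edgeR adjusted p = 0.717). Here too counting error spans the gap, since the 95% Poisson interval of mouse 3 (4.82 to 9.18 CPM) overlaps that of mouse 1 (4.24 to 7.08 CPM). Without mouse 9, the liver with most Ugt3a1, the change was 0.54. Ugt1a6a averaged 19.2 ± 5.72 and 9.53 ± 4.55 CPM in the same order, with 1.08 (0.23 to 1.94, edgeR adjusted p = 0.717), and 0.66 without PBS mouse 4.

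The abundant genes had small estimates with wide intervals here as well. Ugt2b5 averaged 856 ± 204 CPM in AAVrh.10mCherry mice and 884 ± 303 CPM in PBS mice, a log2 change of −0.18 (95% interval −0.86 to 0.49). Ugt2b36 had −0.17 (−0.78 to 0.45), Ugt2b1 had −0.38 (−1.34 to 0.58), Ugt2b34 had 0.22 (−0.65 to 1.09), Ugt2a3 had −0.30 (−0.79 to 0.20) and Ugt3a2 had −0.09 (−0.70 to 0.53). Without mice 6 and 7, the highest AAVrh.10mCherry and the lowest PBS liver for Ugt2b34, the value of that gene was −0.26. Ugt2b1 ran from −0.78 without mouse 9 to −0.035 without mouse 6. The median over the 9 genes was −0.09, beside 0.02 over all genes tested.

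AAVrh.10mCherry against AAVrh.10Null compares the vectors with each other and shares its mice with both comparisons above. By edgeR 0 of 9 genes passed, with a background of 0.0265%, and 2 of 9 had an unadjusted p under 0.05, against 7.30% of all genes. The groups did not overlap for 1 gene, Ugt3a1, with higher AAVrh.10mCherry values, against 12% of all genes in that direction. Ugt3a1 averaged 10.6 ± 6.42 CPM in AAVrh.10mCherry mice and 2.84 ± 0.855 CPM in AAVrh.10Null mice, a log2 change of 1.84 with an SE of 0.46 and a 95% interval of 0.84 to 2.84. Its unadjusted p was 0.00163 and its edgeR adjusted p was 0.578. With no filter on low counts it passed (edgeR adjusted p = 0.000457), and without mouse 9 the change was 1.21. Ugt1a1 averaged 21.2 ± 9.19 and 8.37 ± 7.76 CPM in the same order, with 1.25 (0.09 to 2.42, edgeR adjusted p = 0.676). It passed with no filter on low counts (edgeR adjusted p = 0.0127), but without mice 2 and 8, when AAVrh.10Null mouse 5 stands alone with 17.2 CPM, the change was 0.13.

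Ugt2b5 had a log2 change of −0.50 (95% interval −1.17 to 0.17) and Ugt2b36 of −0.47 (−1.09 to 0.14) in AAVrh.10mCherry against AAVrh.10Null mice. Both fell short of the test, and the paralogues had nearly the same estimate in each of the 3 comparisons. Ugt2b1 had −0.43 (−1.39 to 0.53), Ugt2b34 had −0.00 (−0.87 to 0.86), Ugt2a3 had −0.33 (−0.82 to 0.16), Ugt3a2 had −0.06 (−0.67 to 0.55) and Ugt1a6a had −0.55 (−1.29 to 0.19). The median over the 9 genes was −0.33, beside 0.00 over all genes tested, with mouse 6 holding the lowest AAVrh.10mCherry value of 5 of the 6 abundant genes.

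Other UGT genes in the files were mostly near the detection limit. Of 13 further family members on the list, 11 had UMIs, 7 were tested and 0 passed in any group comparison. Ugt2b35 was at 37.8 to 128 CPM over the 9 livers. Ugt2b38, male-predominant in mouse liver, was at 65.9, 0.594 and 14.1 CPM in AAVrh.10mCherry mice 3, 6 and 9, at 106.7, 58.6 and 26.7 CPM in AAVrh.10Null mice 2, 5 and 8, and at 55.9, 30.4 and 13.7 CPM in PBS mice 1, 4 and 7. Mouse 6 was the lowest liver. Ugt2b37 reached 13.2 CPM at most. The remaining Ugt1a genes reached 4.55 CPM in the 8 mice other than mouse 7, where Ugt1a5 stood at 10.3 CPM from 3 UMIs.

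Genes that supply, move or regulate glucuronidation did not pass in any group comparison either. Of the 9 genes of UDP-glucuronic acid supply and glucuronide hydrolysis, 0 passed. Ugp2, which makes UDP-glucose, was at 418 ± 50.7 CPM in AAVrh.10mCherry mice and 258 ± 17.4 CPM in AAVrh.10Null mice (log2 change 0.58, edgeR adjusted p = 0.681). Of 8 transporters of glucuronides and bilirubin tested, 0 passed. Abcc2, the canalicular exporter of bilirubin glucuronides, was at 339.7 ± 61.2 CPM in AAVrh.10Null mice and 209 ± 38.3 CPM in PBS mice (0.68, edgeR adjusted p = 0.303). In the haem breakdown list, 0 of 7 passed, with Blvra, a biliverdin reductase, at −0.59 in AAVrh.10Null against PBS mice (edgeR adjusted p = 0.321). Of 16 regulators of UGT transcription tested, 0 passed, and 15 had a value above 0 in AAVrh.10Null against PBS mice, with a median of 0.46 beside −0.01 over all genes. In AAVrh.10mCherry against PBS mice 12 of 16 were above 0, with a median of 0.39 beside 0.02. Arnt, the partner of the aryl hydrocarbon receptor, had 0.76 (edgeR adjusted p = 0.350) in AAVrh.10Null and 0.77 (0.717) in AAVrh.10mCherry mice, both against the same PBS mice. The 3 tested targets of that receptor did not pass, and Cyp1a2 had −0.40 in AAVrh.10Null and −0.62 in AAVrh.10mCherry mice against PBS mice. Of 12 tested targets of the nuclear receptors CAR and PXR, 0 passed. Ces2a, a carboxylesterase, was at 306 ± 50.3 CPM in AAVrh.10mCherry mice and 577 ± 66.9 CPM in AAVrh.10Null mice, a log2 change of −1.02 (edgeR adjusted p = 0.578). Of 8 genes tested from a list of sulfotransferases, which compete with UGTs for many substrates, and Papss2, which makes their sulfate donor, 0 passed. Sult1d1 was at 300.2 ± 167 CPM in AAVrh.10mCherry mice and 126 ± 21.9 CPM in AAVrh.10Null mice (1.14, edgeR adjusted p = 0.578).

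Ugt2b5 and Ugt2b36 were lower in pericentral than in periportal barcodes. Blood enters the lobule at the portal tracts and leaves at the central vein, and hepatocytes change their enzymes along this path. Barcodes were scored by the share of pericentral UMIs (7 genes, among them Cyp2e1 and Glul) in the sum of pericentral and periportal UMIs (7 genes, among them Cyp2f2 and Hal), none of them a UGT gene. The 25% of barcodes with the highest and the 25% with the lowest share were summed for each mouse. They came from barcodes with at least 20 such UMIs outside the clusters given a cell type name, with unnamed clusters left in. This gave 5 to 439 barcodes per zone and mouse in 8 mice, and mouse 7 had too few. Levels in the zones are scaled to all UMIs of genes outside the score. Of 1139 genes tested in pericentral against periportal barcodes, 23.6% passed, 7.73% higher and 15.9% lower in pericentral barcodes (edgeR's quasi-likelihood test with mouse as a block, Benjamini-Hochberg adjusted). Of the 6 UGT genes abundant enough to be tested, 2 passed, both lower in pericentral barcodes.

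Ugt2b5 was lower in the pericentral barcodes of 8 of 8 mice, where 7.46% of all genes were lower in every mouse. It was at 808, 363 and 778 CPM in pericentral barcodes of AAVrh.10mCherry mice 3, 6 and 9, against 1241, 1167 and 1149 CPM in their periportal barcodes. AAVrh.10Null mice 2, 5 and 8 had 459, 1026 and 1099 CPM in pericentral and 1103, 1294 and 1355 CPM in periportal barcodes. PBS mice 1 and 4 had 1068 and 554 CPM in pericentral and 1247 and 1544 CPM in periportal barcodes. No pericentral value reached the lowest periportal one, but counting error spans the gap. It ran from 1099 CPM (83 UMIs, mouse 8) to 1103 CPM (55 UMIs, mouse 2). The means were 769 ± 286 and 1262 ± 140 CPM in the same order of zones (SD, n = 8), a log2 change of −0.76 with an SE of 0.16, a 95% interval of −1.08 to −0.44 and an edgeR adjusted p of 0.000473. Ugt2b36 was lower in pericentral barcodes of 7 of 8 mice, at 766 ± 193 CPM against 983 ± 171 CPM in periportal barcodes, with −0.40 (SE 0.14, edgeR adjusted p = 0.0315). Its call was lost without mouse 2, 3, 6 or 9 (edgeR adjusted p = 0.0536, 0.0654, 0.0523 and 0.0625) and without the block (0.160), while that of Ugt2b5 held in each of these fits.

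**Figure D4:**
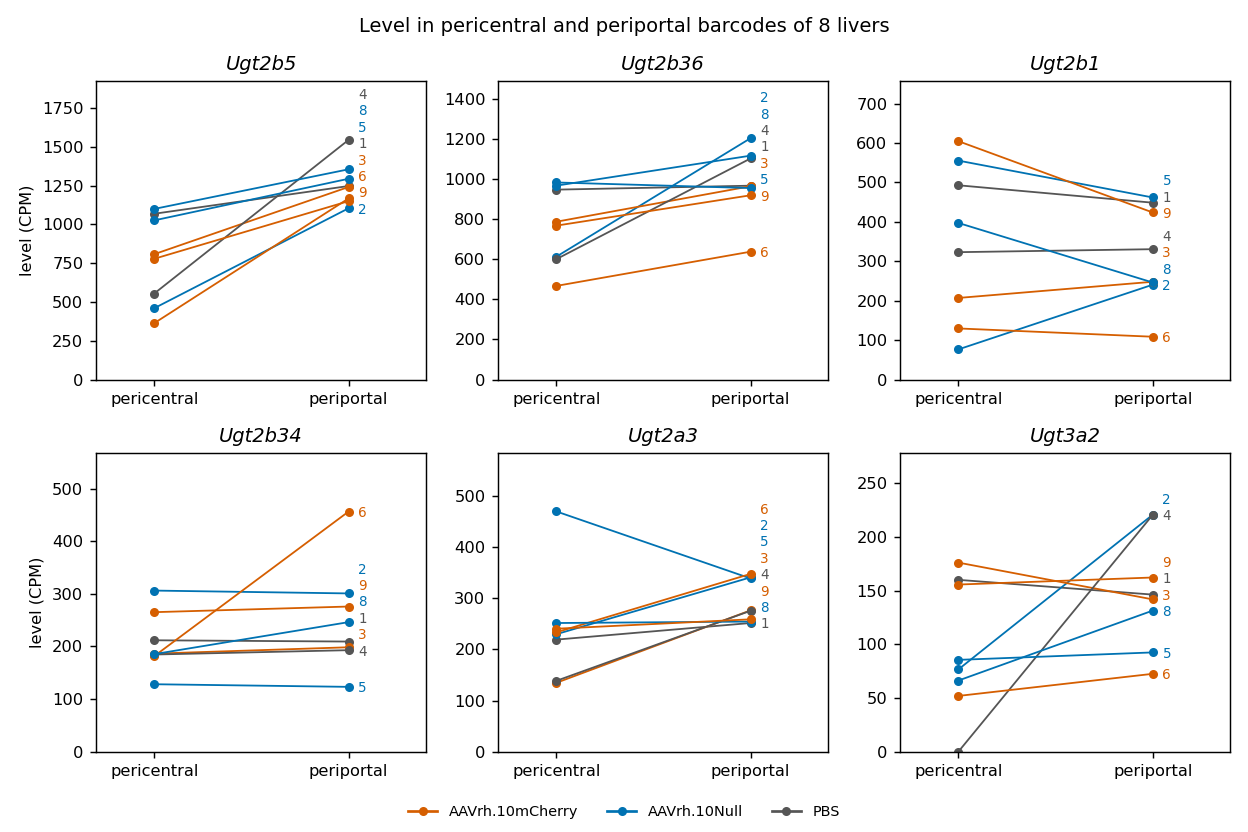
Level in pericentral and periportal barcodes of 8 livers for the 6 UGT genes tested, in CPM (UMIs scaled to all UMIs of genes outside the zone score), each line being 1 mouse with its number and colours marking the groups. Ugt2b5 is lower in the pericentral barcodes of 8 of 8 mice and Ugt2b36 of 7 of 8, while lines of Ugt2b1 run both ways.

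Ugt2b1 did not pass the zone test, at 348 ± 198 CPM in pericentral and 314 ± 125 CPM in periportal barcodes, with a log2 change of 0.13 (95% interval −0.18 to 0.44) and higher pericentral values in 5 of 8 mice. The ratio of Ugt2b1 to Ugt2b5 was higher in the pericentral barcodes of 7 of 8 mice, with medians of 0.411 in pericentral and 0.216 in periportal barcodes. That of Ugt2b36 to Ugt2b5 was higher in pericentral barcodes of 8 of 8, with medians of 0.980 and 0.776 in the same order. These ratios are descriptions, and their difference between zones was not tested. Some rest on few UMIs: in pericentral barcodes of mouse 2 there were 6 of Ugt2b5, 8 of Ugt2b36 and 1 of Ugt2b1. Ugt2b5 had 12 and 14 pericentral UMIs in mice 4 and 6, against 1155 in mouse 1. The same counts stand behind the zone levels above. Ugt2a3 had −0.37 (edgeR adjusted p = 0.0835), at 239.7 ± 104 CPM in pericentral and 293 ± 42.0 CPM in periportal barcodes. Ugt2b34 had −0.28 (edgeR adjusted p = 0.213) and Ugt3a2 had −0.21 (0.493). Ugt1a1, Ugt1a6a and Ugt3a1 had 21, 33 and 14 pericentral UMIs and 31, 64 and 9 periportal UMIs in all and were not tested.

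The depth of barcodes moved with the zones: median UMIs were 1800 to 2457 in pericentral and 2387.5 to 9659 in periportal barcodes, higher in periportal barcodes of 8 of 8 mice, and the part of depth in these results was not tested. In mouse 8 the pericentral set held only 41.2% pericentral score UMIs. With at least 10 in place of 20 score UMIs per barcode, an alternative chosen after seeing the data that gave 100 to 1211 barcodes per zone, Ugt2b5 had −0.32 (edgeR adjusted p = 0.00509) and was again lower in 8 of 8 mice. Ugt2b36 then had −0.21 (0.0453), Ugt2a3 −0.23 (0.0469) and Ugt1a6a −0.68 (0.0355), each of them past the threshold. Within groups, Ugt2b5 had −0.96 in AAVrh.10mCherry mice alone (edgeR adjusted p = 8.89e-05), −0.54 in AAVrh.10Null mice alone (0.369) and −0.88 in the 2 PBS mice alone (0.999). Whether the slope differs between groups was not tested.

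Some partners of glucuronidation passed the zone test, in which 7.73% of all genes were higher and 15.9% lower in pericentral barcodes. Of 3 genes of UDP-glucuronic acid supply tested, 0 passed, with Ugp2 at 0.13 (edgeR adjusted p = 0.549) and Pgm2, a phosphoglucomutase, at 0.07 (0.826). Slco1b2, which takes up bilirubin from blood, was higher in pericentral barcodes (log2 change 0.75, edgeR adjusted p = 0.000593), and Abcc2 was lower (−0.49, 0.0220). Of 3 haem breakdown genes tested, Blvrb, a biliverdin reductase, was higher (1.07) and Hpx, the haem carrier of plasma, lower (−1.47), and 1 more was lower. Of 4 regulators tested 1 passed: Nr1i3, which encodes the receptor CAR, was higher in pericentral barcodes (0.99), while Hnf4a, a hepatocyte transcription factor, had −0.43 (edgeR adjusted p = 0.103). Of the targets of CAR and PXR, 3 of 8 were higher and 2 lower, Cyp2c29 (1.60) and Aldh1a1 (0.90) among the higher. Cyp1a2, the aryl hydrocarbon receptor target tested, was higher (1.35). In the list of sulfotransferases and Papss2, 2 of 4 tested passed and were higher, Sult2a8 (0.72) and Sult1d1 (0.47). Each gene named as higher or lower here had an edgeR adjusted p under 0.05.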

How the data were processed

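Single-cell transcript counts of 9 livers, 1 per mouse, were grouped by the treatment in the labels. Drop-seq libraries were read on a HiSeq 2500, per the labels' protocols, and bcl2fastq 2.19 is named in a deposited readme. The genome mm10 and Seurat, without a version, are named per the submitters' processing notes. Aligner, counter and annotation are not given in the sources used here, and the authors deposited UMI counts for each gene and barcode, whole and unscaled. Free RNA and doublets were not removed, and no doublet caller was run. Total UMIs per liver give the precision: exact 95% Poisson intervals per gene, and a floor of 3 UMIs for 0 UMIs, both for counting error only.

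Barcodes with at least 200 genes were summed per mouse. Groups were compared with edgeR 4.0.16 in R 4.3.3 (TMM, filterByExpr, quasi-likelihood test), in a single fit of all 9 mice, with Benjamini-Hochberg adjustment at 0.05 and t-based 95% intervals. The zone fit had the mouse as a block, since both sums come from the same animal. Clusters were made in Python 3.11.15 with scanpy 1.11.5, and were named where at least 3 markers were 4-fold higher; they are not tested. Fits were tested on simulated data. The members and lists were chosen with earlier results of these data known. All members were named, with the 2 genes of smallest p per list and comparison as candidates and the 2 most alike genes for members of at least 20 CPM. Transcript sequences came from the GENCODE annotation on GRCm38, and those of the Ugt1a genes are not reported here. Alternatives were other normalizations, filters, models, barcode sets and left-out mice.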

Additional observations from a re-analysis of the deposited data

Results flagged for a closer look

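The level of Ugt2a3 in pericentral barcodes of mouse 5 (AAVrh.10Null) was 470.03 CPM, from 11 UMIs. The other 7 mice with zone sums had 135 to 252 CPM. For Ugt2b34, the difference of pericentral minus periportal barcodes in mouse 6 (AAVrh.10mCherry) was −274.93 CPM, from 7 and 63 UMIs. The other 7 mice had −60.9 to 5.42 CPM. Both were found by Dixon's criterion for a sample far from the others, which by chance marks about 1 in 20 groups of values. It was applied to 6 genes, each in pericentral barcodes, periportal barcodes and their difference, and takes no account of counting error. Barcodes with under 200 genes entered only the alternative over all deposited barcodes, and UGT transcripts were counted there in 2 livers. In mouse 6 the 9 genes stood at 1377 CPM in 17 such barcodes (11 of 7987 UMIs), beside 2061 CPM in the barcodes kept. In mouse 7 (PBS) they stood at 1276 CPM in 3050 such barcodes (1010 of 791753 UMIs), beside 1603 CPM in those kept.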

How the results depend on the processing

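Of 638 alternative values of single genes over 20 settings per group comparison and 17 for the zones, 579 kept their direction and their side of the threshold. The other 59 were 6 that newly passed, 11 that no longer passed and 42 that changed sign; none of the 42 was a called value, and their lowest adjusted p was 0.171. The number of UGT genes called in AAVrh.10Null minus PBS was 1 in place of 0 with no filter on low counts, with DESeq2 and with at least 500 genes per barcode. In AAVrh.10mCherry minus AAVrh.10Null it was 2 in place of 0 with no filter. In pericentral minus periportal barcodes, where 2 were called, it was 1 with no replicate block, with no filter and in AAVrh.10mCherry mice alone, 0 in PBS and in AAVrh.10Null mice alone, 4 with at least 10 score UMIs, and 1 to 2 without each mouse in turn.

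Signs changed as follows (log2). In AAVrh.10Null minus PBS, Ugt1a1 was 0.0265 with DESeq2 and 1.003 without mice 2 and 8. Ugt3a2 was 0.0082 with only the mice of the 2 groups and 0.13 without mice 2 and 8. With at least 500 genes, Ugt2a3 was −0.080, Ugt2b1 −0.12 and Ugt2b34 −0.089. Without the clusters given a cell type name, a setting that kept the unnamed clusters, Ugt2a3 was −0.013. Without mice 6 and 7, Ugt2b1 was −0.30 and Ugt2b34 −0.13. In AAVrh.10mCherry minus PBS, Ugt2b34 was −0.26 without mice 6 and 7. In AAVrh.10mCherry minus AAVrh.10Null, Ugt2b34 was 0.015 with limma-voom, 0.0034 with at most 50% mitochondrial UMIs and 4.09e-05 over all deposited barcodes. It was 0.16 with at least 500 genes and 0.018 without the named clusters. Ugt3a2 was 0.27 with at least 500 genes and 0.10 without mice 6 and 7. In the zones, Ugt2b1 was −0.011 in PBS mice alone, and with at least 10 score UMIs Ugt2b34 was 0.0046 and Ugt3a2 0.18. The cause was not tested.

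Leaving out each mouse in turn changed signs within these ranges. In AAVrh.10Null minus PBS they were −1.15 to 0.33 for Ugt1a1, −0.22 to 0.17 for Ugt3a2, −0.29 to 0.29 for Ugt2b1 and −0.13 to 0.83 for Ugt2b34. In AAVrh.10mCherry minus PBS they were −0.46 to 0.021 for Ugt2b5, −0.30 to 0.075 for Ugt3a2 and −0.15 to 0.81 for Ugt2b34. In AAVrh.10mCherry minus AAVrh.10Null they were −0.19 to 0.11 for Ugt2b34 and −0.25 to 0.10 for Ugt3a2.

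Counts over all genes moved more. In AAVrh.10Null minus PBS 1 gene was called, but 306 with no filter, 70 with DESeq2, 47 with at least 500 genes, 0 with limma-voom or without mice 2 and 8, and 0 to 8 without each mouse. In AAVrh.10mCherry minus PBS 0 were called, with 744 at an unadjusted p under 0.05, but 102 with no filter, 2 with DESeq2 and 1 without mouse 2. In AAVrh.10mCherry minus AAVrh.10Null 3 were called, but 151 with no filter, 1 with the mice of the 2 groups only or without mice 6 and 7, 0 with limma-voom, over all barcodes or without mice 2 and 8, and 0 to 5 without each mouse. In the zones 269 were called, but 103 with no replicate block, 3 in PBS and 21 in AAVrh.10Null mice alone, 1219 with at least 10 score UMIs and 154 without mouse 9. DESeq2, fitted to unfiltered genes, moved the median log2 change of all genes to −0.18 and −0.15 for the contrasts with PBS in the order above, and to 0.26 in the zones.

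No paired analysis was possible for the group comparisons because mouse numbers are not shared between groups. At least 50 score UMIs was not run, since only mouse 1 then had 5 barcodes per zone. Depth limits Ugt1a1, Ugt1a6a and Ugt3a1 most, with 1, 4 and 0 UMIs in mouse 7.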
